A study of Mus musculus with 6 samples.

Results

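The genes described here encode the YAP and TAZ coactivators (Yap1, Wwtr1), the 4 TEAD transcription factors (Tead1, Tead2, Tead3, Tead4) and the VGLL cofactors Vgll3 and Vgll4. They were chosen by name, for their role in transcription downstream of the Hippo pathway. All 8 were found among the 24190 genes of the count table. RNA sequencing profiled MTO54, organoids grown from a mouse colorectal tumor (MTO, mouse tumor organoid). The labels give them as AKP, which control and treated cultures share. The groups were 3 parental cultures in complete stem cell medium (Ctrl) and 3 parental cultures in the same medium with Folfiri, which combined SN38 at 100 nM with 5FU at 50 μg/μl (unit printed as in the labels). 5FU is a fluoropyrimidine that disturbs DNA and RNA synthesis, and SN38 is the active form of irinotecan, a topoisomerase I inhibitor. Per the labels, treatment lasted 2 days and began 2 days after single cells had been seeded, whereas a figure legend of the study gives a longer treatment. Age, sex and strain of the mouse of origin are not given in the sources used here. All samples come from 1 line. A figure legend of the study calls the replicates biological, and how they were kept apart is not given in the sources used here, so p-values measure the spread between these samples.

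YAP and TAZ do not bind DNA by themselves. When the kinases of the Hippo pathway, MST1/2 and LATS1/2, are inactive, YAP and TAZ enter the nucleus, bind TEAD factors and switch on genes such as Ctgf and Cyr61. When LATS kinases phosphorylate them, they are held in the cytoplasm by 14-3-3 proteins or degraded. VGLL proteins bind the same TEAD surface. VGLL4 competes with YAP for TEAD and restrains it, whereas VGLL3 can act with TEAD as a coactivator. In the intestine YAP is known for its part in regeneration after injury. RNA levels, which are all that was measured here, do not report phosphorylation, localization or protein amount.

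TEAD factors bind the sequence GGAATG, which reads CATTCC on the other strand. RefSeq promoters of GRCm38.p6, each covering 250 bases before to 50 bases after a start site, were present for 6 of the 8 genes. Either form of the motif was found in the promoters of 5 of these 6 genes, against 7 of 15 YAP-22 target genes with a promoter in the table and 4481 of 27025 genes (16.6%) overall. Counted by promoter, the shares were 7 of 9 for these genes and 14.7% of all 32851 promoters. Tead2 held no match in its window, which says only that these letters are not there, and Tead1 and Tead4 had no entry. The windows below are shown because they carry the motif, in capitals, in promoters of genes whose levels follow. Each is 30 bases, read 5′ to 3′ on the strand of the gene, and a match is a description and not a binding site.
Yap1, chr9:8004720-8004749, minus strand: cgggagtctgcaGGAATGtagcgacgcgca
Wwtr1, chr3:57576029-57576058, minus strand: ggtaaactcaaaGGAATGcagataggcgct
Tead3, chr17:28350706-28350735, minus strand: tccggccgggctCATTCCgtaCATTCCggc
Vgll3, chr16:65815114-65815143, plus strand: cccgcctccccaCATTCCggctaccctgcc
Vgll4, chr6:114969268-114969297, minus strand: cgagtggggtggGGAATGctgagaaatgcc
The first motif base in these windows lay between positions -170 and -63 from the start site. The Tead3 window holds the motif at 2 places.

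Deposited counts on genes ranged from 22103591 to 30098210 per sample. Ctrl replicate 1 stood apart from its group, with a chi-square per degree of freedom of 23.7 and 22.4 against the other Ctrl samples, which differed from each other by 3.84. Folfiri replicate 3 did so to a lesser extent (12.3 and 11.9, against 3.55). Levels are CPM, counts scaled to a common library size, with TMM, a factor that brings the bulk of genes to the same level across samples. TMM factors were 0.880 to 0.966 in Ctrl and 1.10 to 1.11 after Folfiri. Scaling by total counts alone moved the median of all log2 fold changes from 0.02 to 0.30, a shift of 0.28, so that the sign of smaller changes depends on the scaling, and changes are also given relative to that median. Since the scaling moves genes by nearly the same amount, distances from the median agree between scalings by construction. All 10 epithelial markers were at 1 CPM or more on average in both groups. Their summed level was 5997 to 6965 CPM in Ctrl and 4819 to 4992 CPM after Folfiri. Organoid RNA is a bulk measure, in which fewer cells of a type and less RNA per cell cannot be told apart.

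After Folfiri, Tead4 rose and Tead1 fell, Vgll3 went from 2 reads in all Ctrl samples to 42 in the Folfiri samples, and Yap1 stayed within a few percent of its Ctrl level with TMM. Wwtr1 and Vgll4 fell by smaller amounts, which turned above 0 with total counts only, and Tead2 and Tead3 did not pass the test. Yap1 and Tead3 passed it with total counts only, at log2 fold changes of 0.34 and 0.47. Of the 8 genes, 5 were called (2 higher and 3 lower), or 62.5%, against 79.1% of the 14692 genes tested by edgeR's quasi-likelihood test at an adjusted p threshold of 0.05. Of all genes tested, 40.3% were called higher and 38.8% lower. The count includes Vgll3, which passed the filter on low counts through its Folfiri samples alone, and without it 4 of 7 genes were called (1 higher and 3 lower), or 57.1%. With total counts only, 4 of the 8 were called higher and 1 lower, against 78.8% of all genes in either direction, 49.8% higher and 28.9% lower. The groups did not overlap for 6 of the 8 genes, against 81.5% of all genes tested. Both counts include Vgll3, whose direction was fixed by the filter. The median absolute log2 fold change was 0.23 over the 8 genes (0.20 without Vgll3) and 0.73 over all genes tested. Without Ctrl replicate 1, 7 of the 8 genes were called, or 87.5%, against 82.0% of all genes. When any other sample was left out, the share was 50.0%, against 73.9% to 75.8% of all genes. With no filter on low counts it was 62.5%, against 52.7% of all 24190 genes. The share called among the 8 genes thus lay below the background in most fits and above it in some.

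**Figure D1:**
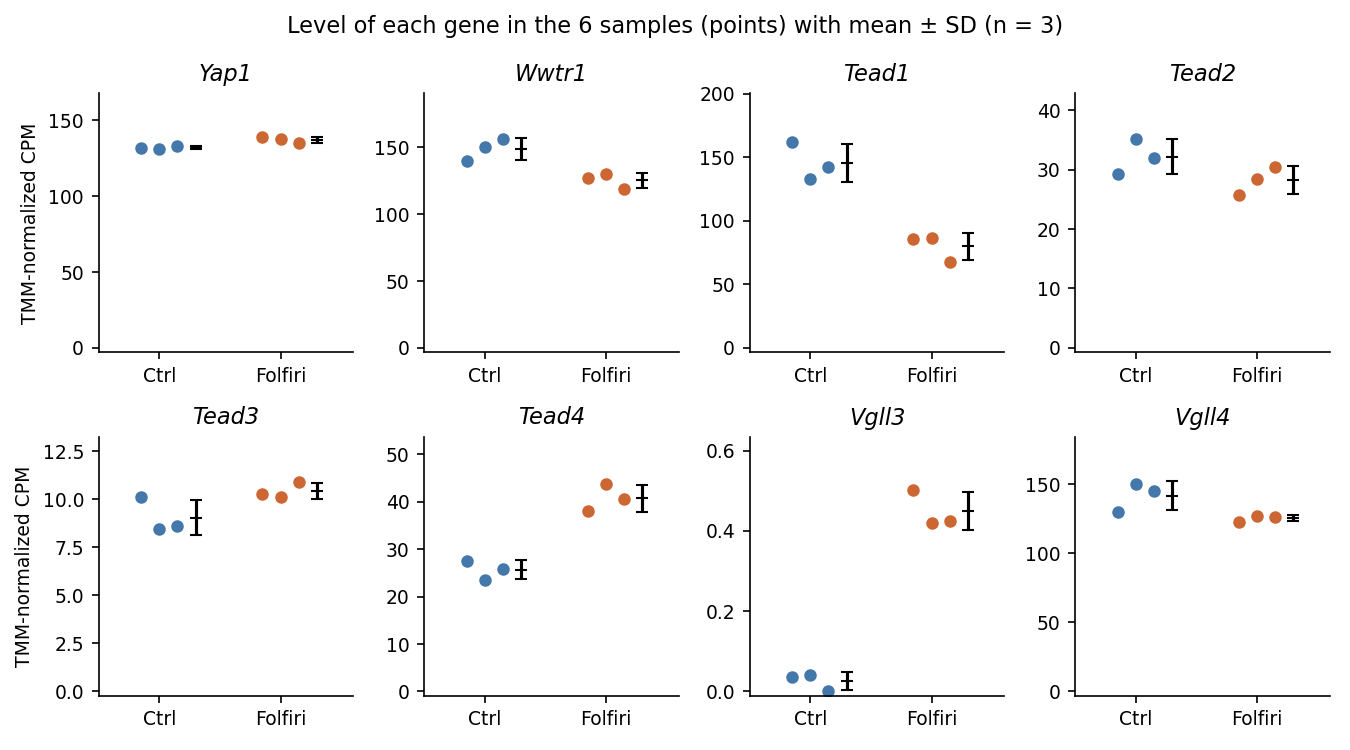
TMM-normalized CPM of each gene in the 3 Ctrl (blue) and 3 Folfiri (orange) samples, with the mean and SD of each group in black. The groups stand apart in Tead1, Tead4, Vgll3, Wwtr1, Vgll4 and, by a small margin, Yap1, and they overlap in Tead2 and Tead3. With total counts only in place of TMM, the log2 fold changes of Wwtr1 (0.03) and Vgll4 (0.10) are above 0.

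Yap1 (ENSMUSG00000053110) encodes YAP and lies on chromosome 9 from 7931999 to 8004596 on the minus strand of GRCm38. Its level was 132, 131 and 133 CPM in Ctrl and 139, 138 and 135 CPM after Folfiri. The 3 Folfiri samples all lay above the 3 Ctrl samples, by a margin of a few CPM. The group means were 132 ± 1.03 CPM (SD, n = 3) and 138 ± 2.18 CPM (SD, n = 3), a ratio of 1.04. The log2 fold change was 0.06 (SE 0.06, 95% interval -0.08 to 0.20, edgeR adjusted p = 0.38). With total counts only it was 0.34 (edgeR adjusted p = 9.78e-04), which is 0.04 above the median of all genes, by construction the same distance as with TMM. On the size of its change, Yap1 was at percentile 4.64 of all genes tested. The annotation places Gm20416, a transcript on the other strand that the table does not list, over 116 exonic bases of Yap1. Of the 50-base windows in the longest Yap1 transcript, 1.15% also occurred in other genes.

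Wwtr1 (ENSMUSG00000027803) encodes TAZ, the paralog of YAP, and lies on chromosome 3 from 57455649 to 57575910 on the minus strand. Its level was 140, 150 and 156 CPM in Ctrl and 127, 130 and 119 CPM after Folfiri. All Folfiri samples were below all Ctrl samples. The means were 149 ± 8.06 and 125 ± 5.29 CPM (SD, n = 3 each). Wwtr1 fell by 0.25 on the log2 scale (SE 0.07, 95% interval -0.41 to -0.09, edgeR adjusted p = 0.00779), a direction that turned to 0.03 (edgeR adjusted p = 0.677) with total counts only. Its distance from the median of all genes was -0.27 under both scalings, which agree by construction. One window of 50 bases in the longest Wwtr1 transcript also occurred in another gene. The processed pseudogene Gm16016 overlaps Wwtr1 on the other strand, outside its exons, and had 14 counts over the 6 samples.

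The balance between the coactivators does not depend on library scaling, since it is a ratio within a sample. The log2 ratio of Yap1 to Wwtr1, each divided by its exonic length, was -1.04, -1.15 and -1.19 in Ctrl and -0.82, -0.86 and -0.77 after Folfiri. The Folfiri ratios all lay above the Ctrl ratios. How far Wwtr1 stood above Yap1 depends on the length used. With the longest transcript of each gene the ratios were -0.25, -0.37 and -0.41 in Ctrl. After Folfiri they were -0.03, -0.07 and 0.01, so that Yap1 and Wwtr1 were nearly level. The mean rose from -1.13 ± 0.08 to -0.82 ± 0.04 (SD, n = 3 each), by 0.31, with an exact two-sided permutation p = 0.1, the smallest that 3 against 3 allows.

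Tead1 (ENSMUSG00000055320), which encodes one of the DNA-binding partners of YAP and TAZ, lies on chromosome 7 from 112679318 to 112906807 on the plus strand. Its level was 162, 133 and 142 CPM in Ctrl and 85.8, 86.1 and 67.9 CPM after Folfiri. No Folfiri sample came near the lowest Ctrl sample. The mean went from 146 ± 14.9 to 79.9 ± 10.4 CPM (SD, n = 3 each), or 0.548 times the Ctrl level. Tead1 fell by 0.87 on the log2 scale (SE 0.11, 95% interval -1.10 to -0.63, edgeR adjusted p = 2.41e-05). It was also lower with total counts only, at -0.60 (edgeR adjusted p = 0.00191). The non-coding genes 2310014F06Rik and Gm44462 overlap Tead1 outside its exons, and neither is listed in the table. Of the 50-base windows in its longest transcript, 29 (0.292%) also occurred in other genes, 453 in all.

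Tead4 (ENSMUSG00000030353) lies on chromosome 6 from 128224288 to 128300823 on the minus strand and moved the other way. Its level was 27.6, 23.5 and 25.9 CPM in Ctrl and 38.0, 43.7 and 40.6 CPM after Folfiri. The lowest Folfiri sample was well above the highest Ctrl sample. Mean levels were 25.7 ± 2.10 CPM (SD, n = 3) in Ctrl and 40.8 ± 2.82 CPM (SD, n = 3) with Folfiri, or 1.59 times the Ctrl level. The log2 fold change was 0.67 (SE 0.09, 95% interval 0.47 to 0.87, edgeR adjusted p = 5.09e-05), and 0.94 with total counts only (edgeR adjusted p = 3.62e-05). The processed pseudogene Gm21893, not listed in the table, overlaps Tead4 outside its exons. Tead3 and Tead4 share 10 windows of 50 bases with each other, which are 0.295% and 0.33% of their longest transcripts.

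Tead2 (ENSMUSG00000030796), on chromosome 7 from 45215753 to 45233644 on the plus strand, encodes a paralog known from early embryos. Its level was 29.3, 35.2 and 32.0 CPM in Ctrl and 25.8, 28.5 and 30.5 CPM after Folfiri, and the groups overlapped. The log2 fold change was -0.19 (SE 0.10, 95% interval -0.40 to 0.03, edgeR adjusted p = 0.101) and 0.09 with total counts only. Without Ctrl replicate 1 it was -0.25 and passed the test (edgeR adjusted p = 0.0149). Cd37, on the other strand, overlaps 13 exonic bases of Tead2 and had 192 counts over the 6 samples.

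Tead3 (ENSMUSG00000002249), on chromosome 17 from 28331671 to 28350817 on the minus strand, was the lowest of the family. Its level was 10.1, 8.43 and 8.63 CPM in Ctrl and 10.3, 10.1 and 10.9 CPM after Folfiri. The highest Ctrl sample reached the lowest Folfiri sample, so the groups met. The log2 fold change was 0.20 (SE 0.11, 95% interval -0.05 to 0.45, edgeR adjusted p = 0.126). It passed the test without Ctrl replicate 1, at 0.29 (edgeR adjusted p = 0.014), and with total counts only, at 0.47 (edgeR adjusted p = 0.00938).

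The makeup of the TEAD family can be followed as the share of each paralog in the summed Tead level, with counts divided by exonic length. Tead1 made up 43.8%, 39.3% and 40.9% of the sum in Ctrl and 26.6%, 24.5% and 20.6% after Folfiri. Tead4 made up 28.2%, 26.2% and 28.0% in Ctrl and 44.4%, 46.8% and 46.4% after Folfiri. Tead1 was the leading paralog in every Ctrl sample, and Tead4 in every Folfiri sample. The mean share of Tead1 went from 41.3% ± 2.31 to 23.9% ± 3.01 and that of Tead4 from 27.5% ± 1.14 to 45.9% ± 1.30 (SD, n = 3 each). Tead3 went from 5.20% ± 0.288 to 6.32% ± 0.470, also with no overlap between groups. For each of these 3 shares the exact two-sided permutation p was 0.1, the smallest this design allows, or 0.133 after adjustment over the 4 paralogs. The share of Tead2 was 26.0% ± 3.53 in Ctrl and 23.9% ± 2.00 after Folfiri, and the groups overlapped (exact permutation p = 0.7).

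**Figure D2:**
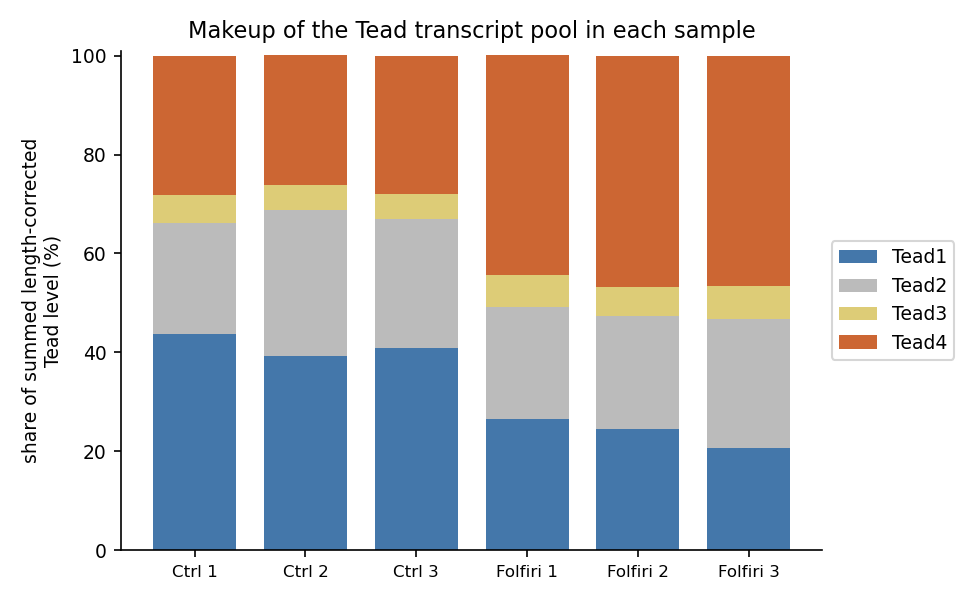
Share of each Tead paralog, in percent, in the summed length-corrected Tead level of each sample, with 1 bar per sample and 1 color per paralog. Tead1 takes 39.3% to 43.8% in Ctrl and 20.6% to 26.6% after Folfiri, and Tead4 takes 26.2% to 28.2% and 44.4% to 46.8%.

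The log2 ratio of Tead4 to Tead1 was -0.64, -0.59 and -0.54 in Ctrl and 0.74, 0.94 and 1.17 after Folfiri. The mean difference was 1.54 (exact two-sided permutation p = 0.1). The change of sign rests on the division by length, since Tead1 had more counts than Tead4 in all 6 samples. The summed Tead level, in RPKM (CPM with TMM, divided by exonic length in kilobases), was 25.9 ± 1.19 in Ctrl and 24.7 ± 1.12 after Folfiri (SD, n = 3 each), and the groups overlapped (exact permutation p = 0.300). The direction of this difference depends on the scaling, since with total counts only the sum was 23.6 ± 2.36 in Ctrl and 27.2 ± 1.14 after Folfiri, without overlap (exact permutation p = 0.1). The makeup of the family does not depend on it.

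Vgll4 (ENSMUSG00000030315), on chromosome 6 from 114860628 to 114969994 on the minus strand, encodes the competitor of YAP on TEAD. Its level was 130, 150 and 145 CPM in Ctrl and 123, 127 and 126 CPM after Folfiri. The Folfiri samples lay below the Ctrl samples, with a small gap to Ctrl replicate 1. Vgll4 fell by 0.18 on the log2 scale (SE 0.07, 95% interval -0.34 to -0.02, edgeR adjusted p = 0.0418), a direction that turned to 0.10 (edgeR adjusted p = 0.142) when libraries were scaled by their totals. The call was lost without Ctrl replicate 2 (-0.15, edgeR adjusted p = 0.157), Ctrl replicate 3 (-0.17, edgeR adjusted p = 0.107), Folfiri replicate 1 (-0.16, edgeR adjusted p = 0.133), Folfiri replicate 2 (-0.19, edgeR adjusted p = 0.0962) or Folfiri replicate 3 (-0.18, edgeR adjusted p = 0.0701). The distance of Vgll4 from the median of all genes was -0.20 under both scalings, which agree by construction. The log2 ratio of Vgll4 to the sum of Yap1 and Wwtr1, each per exonic length, was -0.79 ± 0.07 in Ctrl and -0.82 ± 0.05 after Folfiri (SD, n = 3 each). These ratios overlapped (exact two-sided permutation p = 0.600), and their difference of -0.03 was smaller than the spread within either group. The difference was -0.07 with the longest transcript as the length and -0.08 without length correction (exact two-sided permutation p = 0.200 for each).

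Vgll3 (ENSMUSG00000091243), on chromosome 16 from 65815257 to 65866368 on the plus strand, encodes a TEAD cofactor known from mesenchymal cells and muscle. It had 1, 1 and 0 counts in Ctrl and 15, 13 and 14 counts after Folfiri. Every Folfiri sample was above every Ctrl sample, but even there the level was 0.419 to 0.503 CPM. Summed over the groups, the 2 Ctrl and 42 Folfiri counts give a ratio of rates of 16.1 (95% exact interval 4.20 to 138, which covers counting error only). Vgll3 passed the filter on low counts through its Folfiri samples alone, which fixed its direction, so its values are a description and no p is given. Its fitted log2 fold change of 3.81 depends on the prior count. Its relative VGLL1 is encoded by Vgll1, which had no count in Ctrl and 3, 2 and 5 counts after Folfiri and was too low to be tested, and Vgll2 was not listed.

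Because Vgll3 is known from mesenchymal cells, marker lists of other cell types are given beside it. Of 10 fibroblast markers, 1 reached a mean of 1 CPM in Ctrl (Vim) and 2 after Folfiri (Vim and Pdgfra). Their summed level was 74.6 to 93.0 CPM in Ctrl and 19.2 to 20.9 CPM after Folfiri, nearly all of it Vim, which is also made by other cell types. Without Vim it was 1.08 to 1.54 CPM in Ctrl and 2.09 to 2.55 CPM after Folfiri. The defining collagen genes Col1a2 and Col3a1 and the receptor gene Pdgfrb had means of at most 0.0314 CPM in either group, and Col3a1, Pdgfrb and Thy1 were at 0 in every Ctrl sample. Dcn had means of 0.0240 and 0.694 CPM, Pdgfra 0.397 and 1.14 CPM and Col1a1 0.842 and 0.300 CPM in Ctrl and after Folfiri, so these 3 genes did not move in 1 direction. No smooth muscle marker of 5 reached a mean of 1 CPM, and their sums were at 0.0400 to 0.396 CPM in Ctrl and 0.774 to 0.972 CPM after Folfiri, while 10 immune markers, of which Ptprc alone reached a mean of 1 CPM after Folfiri, summed to 0.668 to 0.936 and 2.30 to 2.48 CPM. The 5 endothelial markers summed to 79.6 to 132 and 69.0 to 79.4 CPM, mostly Cdh5. These marker genes were named after their values were seen, and the part of other cells in the Vgll3 result was not tested.

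**Figure D3:**
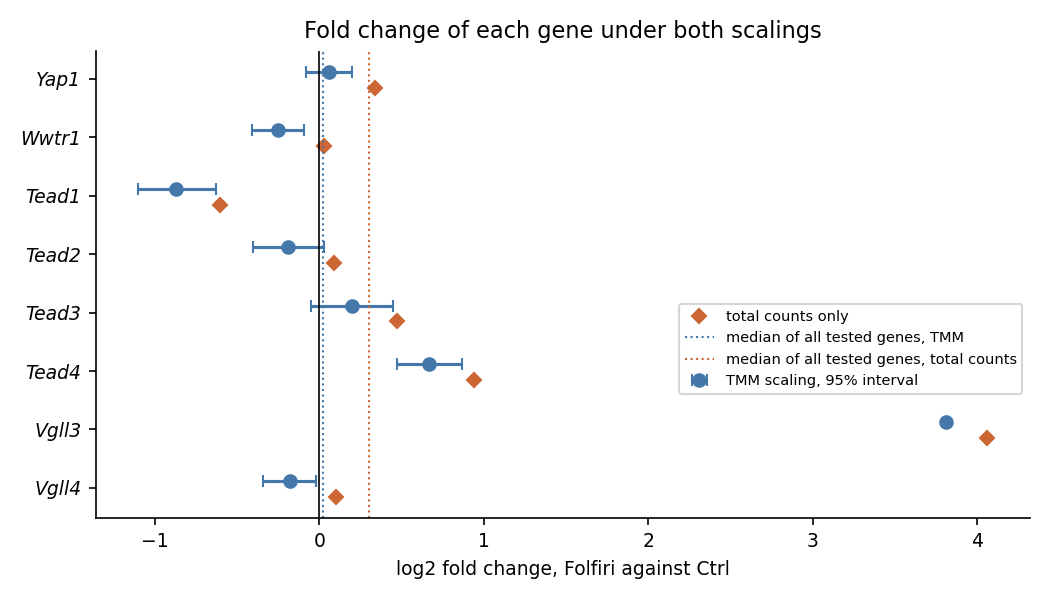
Log2 fold change after Folfiri for each gene with TMM (blue circles, with a 95% interval for all but Vgll3) and with total counts only (orange diamonds), and the median of all genes tested under each scaling (dotted lines). Tead1 lies below 0 and Tead4 and Vgll3 above 0 under both. Wwtr1, Tead2 and Vgll4 are below 0 with TMM and above 0 with total counts only. The 3.81 of Vgll3 depends on the prior count.

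Divided by exonic length, levels can be ordered across genes, as a description with no test. With the union of annotated exons as the length, the order in Ctrl in RPKM was Wwtr1 (31.1), Vgll4 (26.3), Yap1 (14.2), Tead1 (10.7), Tead4 (7.13), Tead2 (6.71), Tead3 (1.35) and Vgll3 (0.00356). The ranges of Tead4 and Tead2 overlapped, and all other neighbors were separate. After Folfiri the order was Wwtr1 (26.2), Vgll4 (23.2), Yap1 (14.9), Tead4 (11.3), Tead2 (5.90), Tead1 (5.89), Tead3 (1.56) and Vgll3 (0.0632), where the ranges of Tead2 and Tead1 overlapped. With the longest transcript as the length, Vgll4 came first (64.6 in Ctrl and 57.0 after Folfiri), then Wwtr1 (31.7 and 26.6) and Yap1. In Ctrl, Tead2 (9.47) then came before Tead4 (8.34). Under both lengths the mean levels of the coactivators and Vgll4 were above that of every TEAD gene, Tead1 led the TEAD genes in Ctrl and Tead4 after Folfiri.

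The genes whose pattern over the 6 samples was most like that of Yap1 were Baz1b, Chd7 and Atxn3 (Pearson r of 0.999, 0.997 and 0.997). The first 2 encode chromatin remodeling proteins and Atxn3 a deubiquitinase. For Wwtr1 they were Nfic, a transcription factor gene, Med12, a gene of the Mediator complex, and Kif20b, a mitotic kinesin gene (r of 0.997, 0.996 and 0.996). All genes compared share the same 6 libraries, their scaling and the split by treatment. Among 9474 genes at a mean of 10 CPM or more, 195 had an r of 0.95 or more with Yap1 and 593 with Wwtr1.

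Upstream of these genes, the Hippo kinases and their regulators mostly rose. Of 14 genes tested, 11 were called higher (against 40.3% of all genes), 1 lower (against 38.8%) and 2 were not called (Nf2 and Taok1, the latter named after its values were seen), with a median log2 fold change of 0.41 against 0.02 for all genes, and 0.68 against 0.30 with total counts only, where 13 were higher and 1 lower (49.8% and 28.9% of all genes). Lats2, a kinase that phosphorylates YAP and is itself a YAP target, rose from 6.34 ± 0.370 to 17.5 ± 0.568 CPM (log2 fold change 1.46, edgeR adjusted p = 3.77e-07). Lats1 rose by 0.40 (edgeR adjusted p = 0.00578) and Sav1, the MST scaffold, by 0.33 (edgeR adjusted p = 0.00107) on the log2 scale. The MST kinase genes differed in direction, since Stk4 (MST1) rose from 54.4 ± 7.64 to 97.0 ± 4.93 CPM (edgeR adjusted p = 1.84e-05) and Stk3 (MST2) fell from 66.8 ± 5.19 to 33.9 ± 1.82 CPM (edgeR adjusted p = 1.56e-06). Nf2, the gene of the upstream regulator Merlin, had a log2 fold change of 0.38 (edgeR adjusted p = 0.0535). Without one replicate it ranged from 0.23 (without Ctrl replicate 3, edgeR adjusted p = 0.191) to 0.66 (without Ctrl replicate 1, edgeR adjusted p = 2.76e-06), and with total counts only it was 0.65 (edgeR adjusted p = 0.0155). With DESeq2's size factors its edgeR adjusted p was 0.0495.

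Of 15 genes whose products hold YAP and TAZ in the cytoplasm or direct their turnover, 6 were called higher, 4 lower and 5 not (66.7% called, against 79.1% of all genes, of which 40.3% were higher and 38.8% lower), with a median log2 fold change of 0.12, against 0.02 for all genes. With total counts only, 10 were higher and 2 lower (49.8% and 28.9% of all genes), and the median was 0.40 against 0.30 for all genes. Without Ctrl replicate 2, 2 were called lower. Angiomotin-like 2 (Amotl2), which binds YAP and is also a YAP target, had 251, 180 and 117 counts in Ctrl and 5213, 5964 and 6533 counts after Folfiri. It rose from 7.41 ± 1.52 to 188 ± 12.2 CPM (log2 fold change 4.65, SE 0.13, edgeR adjusted p = 1.61e-09). Its relative Amotl1 rose by 0.44 (edgeR adjusted p = 3.18e-04) and the phosphatase gene Ptpn14 by 0.85 (edgeR adjusted p = 2.53e-06) on the log2 scale. Amot had a value of -0.01 (edgeR adjusted p = 0.919), and with total counts only of 0.27 (edgeR adjusted p = 0.00395). The 4 called lower were Sfn, the gene of 14-3-3 sigma (-0.79, edgeR adjusted p = 1.44e-05), and, named after their values were seen, Btrc, Ywhae and Ywhag, of which Ywhae and Ywhag turned to 0.02 and 0.08 with total counts only. Ywhae lost its call without Ctrl replicate 2 (edgeR adjusted p = 0.0521). Ywhag kept its call without Ctrl replicate 1 and lost it without any of the other 5 samples (edgeR adjusted p up to 0.11).

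Of 17 genes of nuclear partners, 15 were tested, and 1 was called higher, 6 lower and 8 not. With TMM, the share called was 46.7%, against 79.1% of all genes, of which 40.3% were higher and 38.8% lower. Their median log2 fold change was -0.14, against 0.02 for all genes. With total counts only, 5 were higher and 6 lower (49.8% and 28.9% of all genes). The median then turned to 0.14, against 0.30 for all genes, and the scaling moves both medians by nearly the same amount. Fosl1, an AP-1 gene whose product binds DNA beside TEAD, rose from 2.06 ± 0.680 to 8.48 ± 0.166 CPM (log2 fold change 2.02, edgeR adjusted p = 3.34e-06). Runx2 fell from 124 ± 10.4 to 51.4 ± 6.65 CPM (edgeR adjusted p = 1.05e-06) and Irf2bp2, whose product binds VGLL4, from 166 ± 17.2 to 81.0 ± 8.89 CPM (edgeR adjusted p = 4.09e-06). Jun had a value of -0.14 (edgeR adjusted p = 0.143), which passed the test without Ctrl replicate 1 (-0.21, edgeR adjusted p = 0.00799) and turned to 0.14 with total counts only. Runx1 had a value of 0.21 (edgeR adjusted p = 0.101) and passed the test without Ctrl replicate 1 (0.31, edgeR adjusted p = 0.00746) or Folfiri replicate 3 (0.29, edgeR adjusted p = 0.043), either of which brings the number called higher to 2. It was 0.13 without Ctrl replicate 3 (edgeR adjusted p = 0.34) and 0.48 with total counts only (edgeR adjusted p = 0.00864).

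Downstream, the YAP-22 signature, which the study uses as a readout of YAP activity, holds 22 genes, of which 20 were tested, and 13 were called higher, 6 lower and 1 not (Tgfb2, named after its values were seen). Of all genes, 40.3% were called higher and 38.8% lower. Among the 13, Ccdc80 and Fjx1, named after their values were seen, passed the filter on low counts through their Folfiri samples alone, which fixed their direction. The median log2 fold change was 1.08, or 0.79 without them, and 1.35 or 1.07 with total counts only. Ctgf and Cyr61, secreted matrix proteins, rose by 2.60 (edgeR adjusted p = 7.24e-09) and 3.66 (edgeR adjusted p = 4.48e-09) on the log2 scale. Ankrd1, a nuclear ankyrin repeat protein, rose from 1.49 ± 0.394 to 15.2 ± 0.288 CPM (edgeR adjusted p = 3.70e-08), and the receptor gene Axl was too low to be tested, at 0.213 and 0.435 CPM. The 6 called lower, named after their values were seen, were Rbms3 (log2 fold change -2.13), Gadd45a (-1.84), Myof (-0.87), F3 (-0.75), Arhgef17 (-0.74) and Dock5 (-0.67). Amotl2, Lats2 and Ptpn14 are members of this signature as well as of the lists above, so the lists are not separate. The log2 fold changes of the coactivator genes were 0.06 for Yap1 and -0.25 for Wwtr1, against a median of 0.79 over the 18 target genes other than Ccdc80 and Fjx1. With total counts only they were 0.34 and 0.03, against 1.07.

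**Figure D4:**
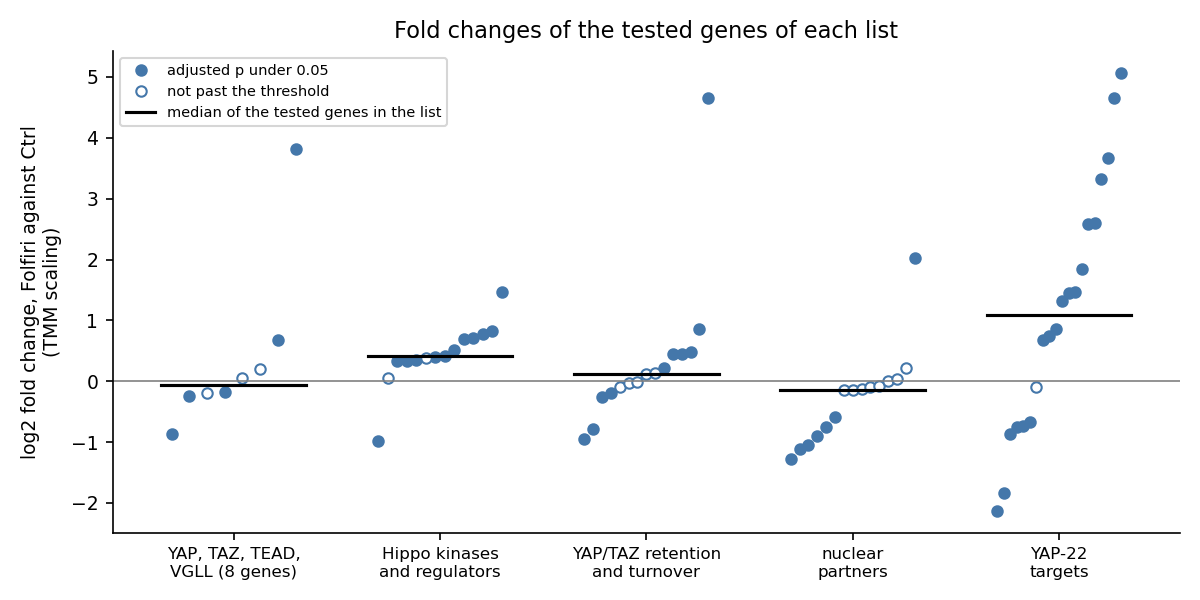
Log2 fold change after Folfiri with TMM for each tested gene of the 8 described here and of the 4 lists, 1 point per gene, filled where the edgeR adjusted p was under 0.05, with the median of each list as a bar. Medians, with Vgll3, Ccdc80 and Fjx1 included, are -0.06, 0.41, 0.12, -0.14 and 1.08 from left to right, and with total counts only that of the nuclear partners turned to 0.14.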

How the data were processed

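RNA of 6 organoid samples, 3 Ctrl and 3 Folfiri per the labels, was sequenced after poly(A) selection with a library kit that does not mark strand. The authors aligned the reads with STAR 2.5.2 to GRCm38 with GENCODE vM25, sorted them with Sambamba and counted them per gene with Rsubread. They deposited raw counts without normalization. The strand setting and the treatment of reads with several positions are not given in the sources used here, so overlapping genes and sequence shared with other genes are named where they were found.

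Counts were tested with edgeR 4.0.16 in R 4.3.3 (default expression filter, TMM, quasi-likelihood test, Benjamini-Hochberg adjustment over all 14692 genes tested, threshold 0.05). Ratios within samples were tested by exact permutation (SciPy 1.17.1). Symbols, positions and exonic lengths came from GENCODE vM21, on the same build, which matched 24168 of 24190 identifiers, with Ctgf and Cyr61 matched through RefSeq synonyms. Promoter sequences came from RefSeq. The procedure was tested on simulated data. Intervals from counts cover counting error only. All pairs of replicates differed by more than sampling noise.

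The members, lists and tests were chosen with earlier results of these data known. Named genes were the 8 members, genes picked by role in each list, genes overlapping a member and the 3 most like Yap1 and Wwtr1 at a mean of 10 CPM or more. Names outside this rule are marked in the text. The alternatives tried were DESeq2 1.42.0 (size factors, Wald test), total counts, upper quartile scaling, other filters and lengths, a replicate block, and fits leaving out each replicate.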

Additional observations from a re-analysis of the deposited data

How the results depend on the processing

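Of 614 alternative values of 50 results, 557 kept their direction and call, or for counts stayed within 1.5 times the main count. With total counts only, the members called were 4 higher (Vgll3 among them) and 1 lower, the retention and turnover genes 10 higher and 2 lower and the nuclear partners 5 higher. Of all genes, 49.8% were higher and 28.9% lower with this scaling. Yap1 was then at 0.34 and Tead3 at 0.47, past the threshold, while Wwtr1 (0.03), Tead2 (0.09), Vgll4 (0.10), Amot (0.27), Jun (0.14), Ywhae (0.02), Ywhag (0.08), Tgfb2 (0.18) and, in an alternative added after seeing the data, the summed Tead level (3.60 RPKM in place of -1.26) changed sign. By construction this scaling moved the median of all genes by 0.28, and the share of all calls that were higher went from 51.0% to 63.3%. A filter of 1 CPM in 3 samples removed Vgll3 and left 1 member called higher, and without a filter 2 nuclear partners were called higher. With upper quartile scaling, Vgll4 (-0.12, edgeR adjusted p = 0.118) and Ywhag (-0.14, edgeR adjusted p = 0.107) lost their calls, Nf2 (0.43, edgeR adjusted p = 0.0401) gained one and Amot turned to 0.05. Without length correction, the Tead2 share differed by 2.56 percentage points in place of -2.08.

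When each replicate was left out in turn, 2 to 3 members were called higher and 2 to 4 lower, 2 to 4 retention and turnover genes lower and 1 to 2 nuclear partners higher. Log2 fold changes ranged from -0.25 to -0.12 for Tead2, 0.14 to 0.29 for Tead3 and -0.24 to -0.15 for Vgll4, whose call held only without Ctrl replicate 1 (edgeR adjusted p = 0.0019). Amot ranged from -0.07 to 0.03, with 0.01 without Ctrl replicate 2 or 3, Tgfb2 from -0.21 to 0.01, and the Vgll4 ratio from -0.07 to 0.01. Over all genes, 11021 to 12312 were called.

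Deviations of samples with the same replicate number correlated at 0.03, -0.12 and 0.04, and those with different numbers at -0.12 to 0.12. The numbers thus show no sign of pairing, which 3 samples per group cannot exclude. With the replicate block, Vgll4 was at -0.18 (edgeR adjusted p = 0.0681), Nf2 at 0.42 (edgeR adjusted p = 0.00721) and Ywhag at -0.19 (edgeR adjusted p = 0.0642), and no call changed for the other members or for the other list genes whose own fits were compared. Depth limits Vgll3, with 0 to 15 counts per sample. The cause of these other moves was not tested.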
